A study of Mus musculus with 12 samples.

Results

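The difference between diets that sham and injured brains had in common was described here, gene by gene, in mouse cortex. For each gene the fish oil minus purified difference was taken within sham mice and within injured mice, and the members are the genes whose 2 differences had the same sign. Of 19252 genes tested, 10523 (54.7%) were members, 5443 of them higher on fish oil in both states and 5080 lower in both, and the other 8729 differed in sign. The sham and the injured comparison share no library.

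The animals were wild-type C57BL/6J mice, and RNA from cortical tissue was sequenced 6 months after injury. Fish oil sham mice and fish oil injured mice ate a high-fat diet with fish oil given in cycles. Purified sham mice and purified injured mice ate a purified control diet without interruption. Injury was rlmTBI, repeated closed-head impacts below the mild range. Each of the 4 groups had 3 libraries, numbered 2 to 4 in the labels, 12 in all. Fat content and feeding schedule differed between the diets along with fish oil, and their parts cannot be told apart. Nothing in the labels says that each library came from a separate animal, so the p-values cover only the spread among the libraries at hand, which may be technical. The series title names eicosapentaenoic acid, an omega-3 fatty acid of fish oil, and cerebrovascular metabolism and repair.

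The lining of brain capillaries is made of endothelial cells joined by tight junctions, which form the blood-brain barrier together with pericytes and astrocyte end-feet. Because little crosses between these cells, glucose, amino acids, hormones and lipids enter through transporters in their membranes, and efflux pumps return many drugs to the blood. Receptors for vascular growth factors and angiopoietins keep these vessels stable or let them sprout.

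Library totals were 46362158 to 70754854 counts, with 23207 to 24579 genes detected. In injured mice the totals did not overlap between diets, at 55223431 to 59050525 on fish oil and 46362158 to 49991615 on the purified diet. The cortical neuron genes Slc17a7 (492 to 1080 CPM, counts scaled to library size), Tbr1 (45.8 to 141) and Cux2 (40.9 to 94.3) were present in every library. Some libraries also held transcripts of other tissue. The choroid plexus gene Ttr reached 186, 2420 and 2260 CPM in fish oil injured mice. It was also high, 434 CPM, in purified sham replicate 3, and 9.82 to 50.1 CPM in the remaining 8 libraries. The striatal gene Drd2 was highest in fish oil sham replicate 2, at 72.2 CPM. It was also raised in purified sham replicate 4, at 27.4 CPM, and fish oil injured replicate 4, at 10.5 CPM. In the other libraries it was at most 4.14 CPM. The olfactory bulb gene Cdhr1 was highest in purified injured replicate 3, at 522 CPM.

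By edgeR's quasi-likelihood test, 0 of 19252 genes passed a Benjamini-Hochberg adjusted p of 0.05 for the averaged diet difference. The lowest adjusted p was 0.13, for Adgrf5. Limma-voom also called 0, and DESeq2 called 99, of which 8 were higher and 91 lower on fish oil and 98 had the same sign in both states. Choosing genes by the averaged difference favours those with the same sign, so the 98 do not show a shared difference. Without purified injured replicate 4 edgeR called 6 genes, all lower. At an unadjusted p under 0.05 there were 1704 genes (8.85%) where chance gives 963, and 530 of them (2.75%) were higher and 1174 (6.1%) lower on fish oil.

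The number of genes differing in both states at an unadjusted p under 0.05 was 68 in the same direction (0.353%), 59 of them lower on fish oil (0.306%) and 9 higher (0.0467%), against 20 in opposite directions (0.104%). None of the 68 had an adjusted p under 0.05 when the larger p of each gene's pair was adjusted over all genes. In sham mice 335 genes (1.74%) were higher and 375 (1.95%) lower at that p, and in injured mice 749 (3.89%) and 1314 (6.83%). Chance gives 963 in each comparison, so the 710 of sham mice were fewer than chance gives and the 2063 of injured mice more. Under some alternatives opposite directions were more frequent. Without fish oil injured replicate 3, 2 genes were higher in both states, 37 were lower and 65 were opposite, and with scores of choroid plexus, striatal and olfactory bulb transcripts as covariates 7 were higher, 3 lower and 51 opposite. Without fish oil sham replicate 3 the numbers were close, at 6 higher and 53 lower against 54 opposite. Leaving out the 3 libraries with the highest Ttr leaves 1 fish oil injured library, so counts for that setting are not given here. Of the 710 genes with p under 0.05 in sham mice, 420 (59.2%) had the same sign in injured mice, and of the 2063 with p under 0.05 in injured mice, 1255 (60.8%) had it in sham mice. The count of 59 lower genes was 32 without fish oil sham replicate 2, 37 without fish oil injured replicate 3, 34 without purified sham replicate 2 and 38 without purified sham replicate 3. The count of 9 higher genes ran from 0 without fish oil sham replicate 2 to 36 without fish oil injured replicate 2. That of lower genes was 106 without fish oil injured replicate 2 and 120 without purified injured replicate 4. In 177 genes (0.919%) the 3 fish oil libraries lay below the 3 purified libraries in both states, in 45 (0.234%) they lay above, and in 77 (0.4%) the order was opposite in the 2 states. All 6 fish oil libraries lay below all 6 purified libraries in 58 genes (0.301%) and above them in 24 (0.125%).

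**Figure D1:**
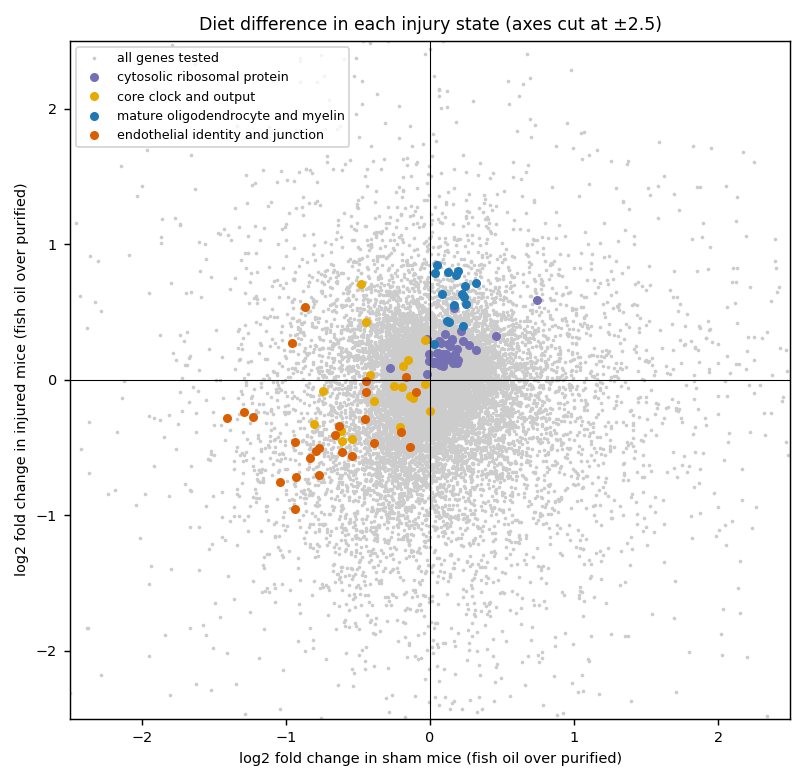
Log2 fold change of fish oil against purified diet in injured mice (vertical axis) plotted against the same in sham mice (horizontal axis), 1 grey point per tested gene, with endothelial, clock, ribosomal protein and myelin genes in colour. The axes stop at 2.5 in either direction and leave out 248 genes. Endothelial genes lie mostly at the lower left, 22 of 25 being below 0 in both states, and all 16 myelin genes lie at the upper right.

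Most genes of brain endothelium had lower values on fish oil in both states. Of 25 genes of endothelial identity and junctions, 22 were below 0 in both states, 0 were above 0 in both and 3 had opposite signs, against 26.4% and 28.3% of all genes below and above 0 in both. Their median log2 fold change was -0.55, against 0.013 over all genes, and was -0.77 in sham and -0.41 in injured mice. At an unadjusted p under 0.05, 19 of the 25 were lower (6.1% of all genes) and 0 higher, and 8 were lower in each state taken alone (0.306% of all genes). The list was written with earlier results of these data known, and Adgrf5 and Ptprb were put in it for their values in sham mice. Without these, 20 of 23 were below 0 in both states, and the median was again -0.55. The count of 19 was 9 with the other-tissue scores as covariates. Without the 3 libraries with the highest Ttr, which leaves 1 fish oil injured library, the median was -0.51. In bulk tissue fewer endothelial cells and less RNA per endothelial cell cannot be told apart.

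**Figure D2:**
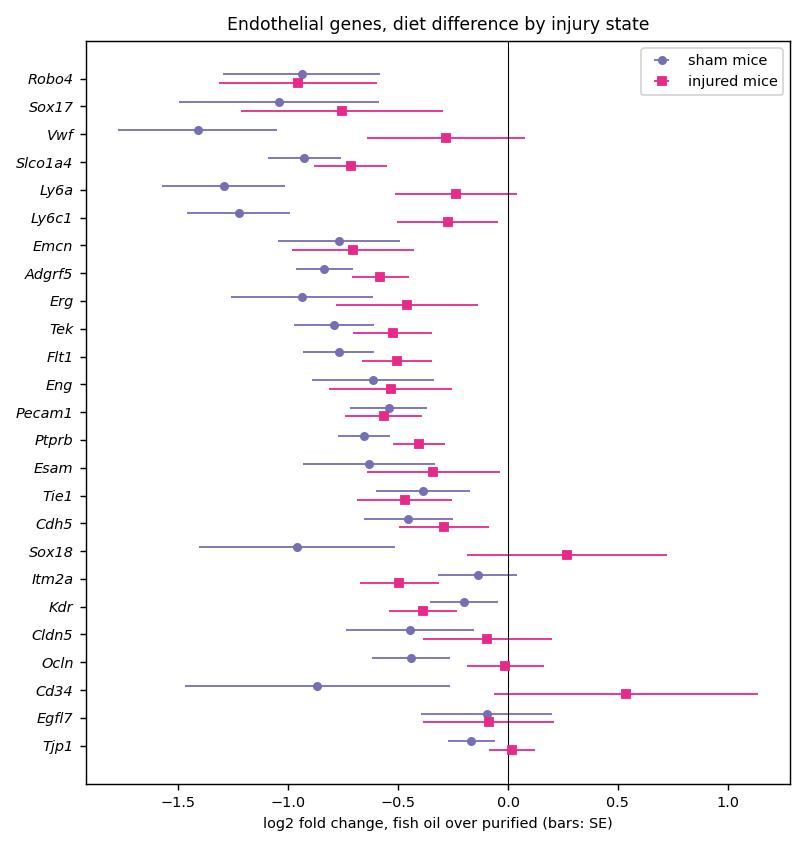
Log2 fold change (fish oil against purified diet) of each of the 25 endothelial genes in sham mice (circles) and in injured mice (squares), with bars of 1 SE. All 25 lie below 0 in sham mice and 22 in injured mice.

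Control sequences of 4 vascular genes are printed here because these genes stand for the receptor and transporter groups that follow. Each is the 250 bases upstream of a transcription start in RefSeq annotation of GRCm38.p6, written 5′ to 3′ on the gene's strand. Slco1a4 is at chr6:141856221-141856470 on the minus strand, Flt1 at chr5:147726012-147726261 on the minus strand, Slc2a1 at chr4:119108495-119108744 on the plus strand and Tek at chr4:94739039-94739288 on the plus strand. Capitals mark AGGAAG or its reverse complement CTTCCT, a form of the core bound by ETS factors, to which the endothelial regulator Erg belongs.
Slco1a4: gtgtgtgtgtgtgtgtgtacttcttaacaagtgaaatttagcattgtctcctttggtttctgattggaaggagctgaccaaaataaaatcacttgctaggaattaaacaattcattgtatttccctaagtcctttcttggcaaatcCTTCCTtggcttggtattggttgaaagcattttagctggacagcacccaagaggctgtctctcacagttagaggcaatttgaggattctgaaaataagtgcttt
Flt1: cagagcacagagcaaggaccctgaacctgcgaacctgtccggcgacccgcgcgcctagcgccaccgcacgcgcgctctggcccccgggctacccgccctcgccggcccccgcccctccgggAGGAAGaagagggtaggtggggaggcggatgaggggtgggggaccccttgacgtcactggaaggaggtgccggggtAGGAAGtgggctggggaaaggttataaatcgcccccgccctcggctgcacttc
Slc2a1: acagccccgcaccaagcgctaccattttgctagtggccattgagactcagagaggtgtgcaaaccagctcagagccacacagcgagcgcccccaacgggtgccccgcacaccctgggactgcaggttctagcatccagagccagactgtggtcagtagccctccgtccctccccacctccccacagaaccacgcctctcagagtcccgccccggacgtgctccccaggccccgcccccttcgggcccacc
Tek: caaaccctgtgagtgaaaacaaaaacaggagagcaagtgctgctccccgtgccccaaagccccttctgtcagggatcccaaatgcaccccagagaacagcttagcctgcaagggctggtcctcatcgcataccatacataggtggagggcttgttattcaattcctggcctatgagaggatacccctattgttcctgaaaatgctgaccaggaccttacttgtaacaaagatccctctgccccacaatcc
There was 1 match in Slco1a4, 2 in Flt1 and 0 in Slc2a1 and in Tek. The letters occurred on either strand in 13 of 24 promoters (54.2%) of 17 endothelial list genes, against 29.5% of all 32851 promoters and 28.4% of those of tested genes. A match is a description of the letters in this window only.

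Adgrf5 (ENSMUSG00000056492.6, chr17:43360451-43459557 on GRCm38) encodes an adhesion G protein-coupled receptor of endothelium. It stood at 23.03, 24.6 and 27.3 CPM in fish oil sham against 43.2, 42.1 and 48.4 CPM in purified sham libraries. It stood at 25.5, 19.6 and 25.4 CPM in fish oil injured against 36.3, 38.2 and 31.0 CPM in purified injured libraries. All 6 fish oil libraries were below all 6 purified libraries. The averaged log2 fold change was -0.71 ± 0.09 (SE, adjusted p = 0.13), with -0.84 ± 0.13 in sham and -0.58 ± 0.13 in injured mice, and it ran from -0.75 to -0.65 with each library left out in turn.

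Ptprb (ENSMUSG00000020154.10) encodes the endothelial phosphatase that acts on the angiopoietin receptor. It was at 25.4, 26.0 and 27.0 CPM in fish oil sham against 35.6, 41.8 and 46.2 CPM in purified sham libraries. In injured mice it was at 25.8, 22.9 and 26.7 CPM on fish oil against 36.4, 33.6 and 29.8 CPM on the purified diet. The diets did not overlap, and the averaged log2 fold change was -0.53 ± 0.08 (SE, adjusted p = 0.272).

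Receptors for vascular growth factors were among these genes. Flt1 (ENSMUSG00000029648.13, chr5:147561604-147726011), a VEGF receptor, stood at 23.9, 34.3 and 34.5 CPM in fish oil sham against 44.4, 56.1 and 57.7 CPM in purified sham libraries, and at 31.9, 25.5 and 29.1 CPM in fish oil injured against 43.0, 42.8 and 36.9 CPM in purified injured libraries. Tek (ENSMUSG00000006386.15, chr4:94739289-94874976), the angiopoietin receptor, stood at 8.18, 8.93 and 8.10 CPM in fish oil sham against 11.7, 14.5 and 17.5 CPM in purified sham libraries, and at 8.58, 6.00 and 8.16 CPM in fish oil injured against 11.7, 11.2 and 9.76 CPM in purified injured libraries. Every fish oil library was below every purified library for both genes. The averaged log2 fold changes were -0.64 ± 0.11 for Flt1 (SE, adjusted p = 0.425) and -0.66 ± 0.13 for Tek (SE, adjusted p = 0.451). The Notch ligand gene Dll4 was at -0.65 ± 0.23, the receptor gene Notch4 at -0.60 ± 0.23 and the lymphatic and endothelial VEGF receptor gene Flt4 at -0.60 ± 0.24. Kdr, the main VEGF signalling receptor, was at -0.29 ± 0.11. Among the ligands, Vegfb was at 0.19 ± 0.08 and Vegfa at -0.18 ± 0.09. Over the 23 genes of VEGF, angiopoietin and Notch signalling, 7 were lower at an unadjusted p under 0.05 (6.1% of all genes) and 1 higher (2.75%), and 10 were below 0 in both states (26.4% of all genes) and 5 above. Flt1, Tek, Tie1 and Kdr stand in the endothelial list as well, so these counts are not separate from those above.

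**Figure D3:**
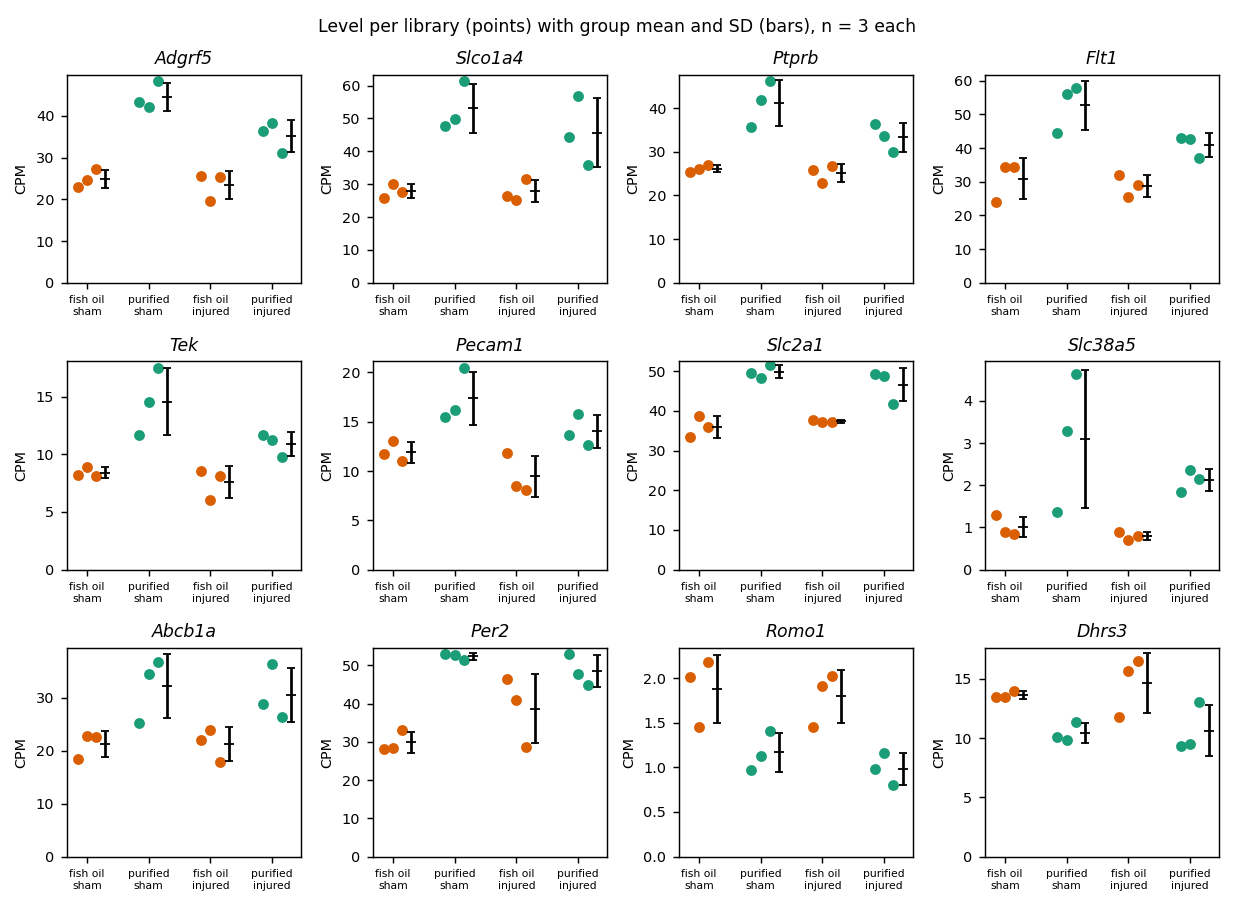
CPM of 12 genes in each of the 12 libraries, fish oil before purified within sham and within injured mice, with points for libraries and bars for the group mean and SD (n = 3 each). Adgrf5, Slco1a4, Ptprb, Flt1, Tek and Slc2a1 show every fish oil point below every purified point, Per2 overlaps in injured mice, and Romo1 shows the opposite order.

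Of adhesion and junction genes, Pecam1, the platelet endothelial adhesion molecule, stood at 11.7, 13.1 and 10.99 CPM in fish oil sham against 15.5, 16.2 and 20.5 CPM in purified sham libraries. In injured mice it stood at 11.85, 8.51 and 8.06 CPM on fish oil against 13.6, 15.8 and 12.6 CPM on the purified diet. The diets did not overlap within either state, and the log2 fold change was -0.54 ± 0.17 in sham and -0.57 ± 0.18 in injured mice. The sialomucin gene Emcn was at -0.74 ± 0.20 on average and the guidance receptor gene Robo4 at -0.95 ± 0.25. Endothelial transcription factor genes Erg and Sox17 were at -0.70 ± 0.23 and -0.90 ± 0.32, and the cadherin gene Cdh5 at -0.37 ± 0.14. Of the tight junction genes, Ocln was at -0.23 ± 0.12. Cldn5, the main barrier claudin, was at 3.48, 4.06 and 3.52 CPM in fish oil sham against 3.31, 5.53 and 6.24 CPM in purified sham libraries, and at 2.87, 2.77 and 4.43 CPM in fish oil injured against 3.58, 4.57 and 2.60 CPM in purified injured libraries. The diets overlapped in both states (-0.27 ± 0.21), and the scaffold gene Tjp1 was at -0.07 ± 0.07.

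Some endothelial genes differed mainly in sham mice. Ly6c1, a capillary surface antigen in mice, had a log2 fold change of -1.23 ± 0.23 in sham and -0.27 ± 0.23 in injured mice. Ly6a had values of -1.29 and -0.24, and Vwf, the von Willebrand factor gene, -1.41 and -0.28. For Ly6c1 the difference between states had an adjusted p of 0.82 by edgeR, and over all genes 0 of 19252 passed that test, with 1108 (5.76%) at an unadjusted p under 0.05. Summed over the 25 genes, the CPM was 371 to 510 in fish oil sham against 600 to 718 in purified sham libraries, and 386 to 492 in fish oil injured against 477 to 540 in purified injured libraries. The sums overlap in injured mice.

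Of 20 transporters of the blood-brain barrier, 4 had lower values on fish oil without overlap in both states (0.919% of all genes). Among them was Slco1a4, which is also in the endothelial list. Slco1a4 (ENSMUSG00000030237.14, chr6:141805440-141856199), an organic anion transporter, stood at 25.8, 30.1 and 27.7 CPM in fish oil sham against 47.7, 49.9 and 61.5 CPM in purified sham libraries. In injured mice it stood at 26.5, 25.3 and 31.6 CPM on fish oil against 44.4, 56.9 and 35.9 CPM on the purified diet. The diets did not overlap, and the averaged log2 fold change was -0.82 ± 0.12 (SE, adjusted p = 0.169), between -0.90 and -0.73 with each library left out. Slc2a1 (ENSMUSG00000028645.11, chr4:119108711-119137983), which carries glucose into brain, stood at 33.3, 38.8 and 35.8 CPM in fish oil sham against 49.6, 48.3 and 51.5 CPM in purified sham libraries, and at 37.7, 37.1 and 37.2 CPM in fish oil injured against 49.3, 48.7 and 41.7 CPM in purified injured libraries. It too showed no overlap, with -0.39 ± 0.07 (SE, adjusted p = 0.409).

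Slc38a5 (ENSMUSG00000031170.14, chrX:8271133-8280179), a glutamine transporter, had a larger difference at low counts. It stood at 1.29, 0.902 and 0.856 CPM in fish oil sham against 1.37, 3.28 and 4.63 CPM in purified sham libraries, and at 0.890, 0.702 and 0.808 CPM in fish oil injured against 1.85, 2.36 and 2.14 CPM in purified injured libraries, or -1.50 ± 0.27 (SE, adjusted p = 0.425). Purified sham replicate 2 lay close to the fish oil libraries. Abcb1a, the drug efflux pump P-glycoprotein, stood at 18.5, 22.7 and 22.7 CPM in fish oil sham against 25.3, 34.6 and 36.9 CPM in purified sham libraries, and at 22.0, 24.0 and 17.8 CPM in fish oil injured against 28.9, 36.4 and 26.4 CPM in purified injured libraries. The diets did not overlap (-0.56 ± 0.12).

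Over all 20 barrier transporters, these 4 included, 5 were lower (6.1% of all genes) and 0 higher at an unadjusted p under 0.05. In both states 11 were below 0 (26.4% of all genes) and 2 above, and 7 had opposite signs, with a median of -0.13. Mfsd2a, which carries lysophospholipids of the omega-3 fatty acid DHA into brain, was at 9.20, 9.03 and 11.8 CPM in fish oil sham against 9.79, 9.88 and 13.3 CPM in purified sham libraries, and at 10.4, 12.7 and 10.6 CPM in fish oil injured against 10.6, 17.4 and 11.8 CPM in purified injured libraries. These overlap (-0.19 ± 0.15, adjusted p = 0.686). Slco1c1, a thyroid hormone transporter, had opposite signs, at -0.50 in sham and 0.28 in injured mice.

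Mural cells, which wrap the endothelium, showed a smaller difference. Of 17 pericyte and smooth muscle genes tested, 8 were below 0 in both states (26.4% of all genes), 1 was above and 8 had opposite signs. At an unadjusted p under 0.05, 2 were lower (6.1% of all genes). The median was -0.26, with -0.04 in sham and -0.36 in injured mice. The pericyte genes Atp13a5 and Rgs5 were at -0.40 ± 0.10 and -0.44 ± 0.14, while Pdgfrb, the receptor that recruits pericytes, was at -0.16 ± 0.12 and the smooth muscle actin gene Acta2 at -0.23 ± 0.29. Of 24 basement membrane and collagen genes, 4 were lower at an unadjusted p under 0.05 (6.1% of all genes). Col4a1 was at -0.14 ± 0.17 in sham and -0.64 ± 0.18 in injured mice. Meningeal fibroblast genes, summed, stood at 723 to 1220 CPM in fish oil sham against 515 to 798 CPM in purified sham libraries, and at 398 to 1470 CPM in fish oil injured against 468 to 1540 CPM in purified injured libraries. Choroid plexus genes, summed, stood at 44.5 to 71.6 CPM in fish oil sham against 36.1 to 515 CPM in purified sham libraries, and at 259 to 2830 CPM in fish oil injured against 26.0 to 55.2 CPM in purified injured libraries, where the diets did not overlap. The part of such tissue in the vascular values was not tested.

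Of 19 clock genes, 13 were below 0 in both states (26.4% of all genes) and 0 above, and 5 were lower at an unadjusted p under 0.05 for the averaged difference (6.1% of all genes), but 0 had such a p in both states by edgeR. Per2 (ENSMUSG00000055866.9, chr1:91415982-91459324), a core repressor of the clock, stood at 28.2, 28.5 and 33.1 CPM in fish oil sham against 53.0, 52.8 and 51.4 CPM in purified sham libraries, and at 46.4, 41.0 and 28.8 CPM in fish oil injured against 53.1, 47.6 and 44.9 CPM in purified injured libraries. The diets were apart in sham and overlapped in injured mice, at -0.81 ± 0.15 and -0.33 ± 0.15, and the averaged value was -0.57 ± 0.11 (SE, adjusted p = 0.451). Its relative Per1 was at 65.9, 81.6 and 72.3 CPM in fish oil sham against 122, 100 and 98.3 CPM in purified sham libraries, and at 91.2, 87.5 and 54.3 CPM in fish oil injured against 115, 120 and 80.6 CPM in purified injured libraries (-0.49 ± 0.14). Per1 too was apart in sham and overlapped in injured mice. Per3 was at -0.53 ± 0.19 and the repressor genes Cry1 and Bhlhe40 at -0.28 ± 0.12 and -0.42 ± 0.12, and Bhlhe40 was at -0.75 in sham and -0.09 in injured mice. The repressor gene Nr1d1 was at -0.15 ± 0.12. The activators of the loop were near 0, with Arntl at -0.05 ± 0.11 and Clock at -0.0039 ± 0.0842, and so was the output factor Dbp at -0.11 ± 0.20. The hour of tissue collection is not given in the labels.

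Of other named genes, Helz2, a helicase and nuclear receptor coactivator, stood at 2.93, 2.85 and 2.97 CPM in fish oil sham against 3.49, 5.11 and 4.85 CPM in purified sham libraries, and at 2.65, 2.42 and 2.89 CPM in fish oil injured against 6.07, 5.16 and 4.36 CPM in purified injured libraries. The diets did not overlap (-0.79 ± 0.14). Irf7, the regulator of the interferon response, stood at 0.609, 0.845 and 0.614 CPM in fish oil sham against 1.19, 1.15 and 1.10 CPM in purified sham libraries, and at 0.691, 0.526 and 0.693 CPM in fish oil injured against 1.66, 0.856 and 0.920 CPM in purified injured libraries, again with no overlap (-0.79 ± 0.23). Of 26 interferon-stimulated genes, 20 were below 0 on average. By edgeR, 4 were lower (6.1% of all genes) and 0 higher at an unadjusted p under 0.05. In both states 6 were below 0 (26.4% of all genes) and 1 above, and 19 had opposite signs, as did 8729 of all 19252 genes. The medians of this list were 0.09 in sham and -0.55 in injured mice. The zinc finger gene Zfp366 was at -0.78 ± 0.16, the actin crosslinker gene Flna at -0.36 ± 0.07, Ctdspl, a phosphatase gene, at -0.29 ± 0.06, Entr1 at -0.31 ± 0.07 and Rccd1 at -0.55 ± 0.12. Lcn2, an acute-phase protein of reactive astrocytes, was at -3.15 ± 0.77, but its level was over 1 CPM only in purified sham replicates 3 and 4, at 3.02 and 3.48 CPM, and at most 0.433 CPM in the other libraries.

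Genes with an unadjusted p under 0.05 for the averaged difference had a median log2 fold change of 0.30 in size when higher on fish oil and 0.49 when lower. Romo1, a mitochondrial inner membrane protein gene, stood at 2.02, 1.45 and 2.18 CPM in fish oil sham against 0.975, 1.13 and 1.41 CPM in purified sham libraries, and at 1.45, 1.91 and 2.02 CPM in fish oil injured against 0.985, 1.16 and 0.800 CPM in purified injured libraries. All 6 fish oil libraries lay above all 6 purified libraries, by a narrow gap, and the log2 fold change was 0.78 ± 0.20 (SE, adjusted p = 0.451). Cnpy2, an endoplasmic reticulum protein gene, stood at 21.4, 20.2 and 19.2 CPM in fish oil sham against 16.9, 17.3 and 18.0 CPM in purified sham libraries, and at 19.9, 21.5 and 19.2 CPM in fish oil injured against 16.3, 16.9 and 17.4 CPM in purified injured libraries (0.24 ± 0.07). It too was without overlap. Dhrs3, which reduces retinaldehyde to retinol, was at 0.43 ± 0.12, the secreted protein gene Nell1 at 0.47 ± 0.13, the lipogenesis regulator gene Mid1ip1 at 0.45 ± 0.13, Sowahc at 0.41 ± 0.10 and the complex I subunit gene Ndufb11 at 0.36 ± 0.09. Prr32, Drc7 and Clic6 were at 2.42 ± 0.55, 1.37 ± 0.34 and 2.11 ± 0.53, and these lie further from 0. Their values came mainly from injured mice, at 3.95 ± 0.81, 2.66 ± 0.49 and 3.4 ± 0.79. In sham mice they were at 0.89 ± 0.78, 0.09 ± 0.47 and 0.83 ± 0.73. Clic6 is in the choroid plexus list and Drc7 in that of ependymal and motile cilia genes. The highest values of Prr32, Drc7, Clic6, Dhrs3, Sowahc and Ndufb11 were in fish oil injured replicates 3 and 4, where Ttr was also highest, and the part of that tissue in their values was not tested.

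Genes of protein synthesis and respiration stood slightly higher on fish oil in both states. Of 38 cytosolic ribosomal protein genes, 33 were above 0 in both states (28.3% of all genes) and 0 below, 10 were higher at an unadjusted p under 0.05 (2.75% of all genes), and the median log2 fold change was 0.15. Without the 3 libraries with the highest Ttr this median was 0.0672 and that of the 40 respiratory genes was 0.0613. That setting leaves 1 fish oil injured library. Rps20, Rps29 and Rpl27a were at 0.27 ± 0.10, 0.35 ± 0.12 and 0.19 ± 0.07. Of 40 nuclear genes of oxidative phosphorylation, 32 were above 0 in both states and 0 below, 6 were higher at an unadjusted p under 0.05, and the median was 0.14. Among them were the complex I subunit genes Ndufb8 and Ndufa2, at 0.27 ± 0.09 and 0.39 ± 0.15, and the ATP synthase gene Atp5g1, at 0.20 ± 0.07. The highest values of Rps29, Ndufa2 and Atp5g1 were in fish oil injured replicates 3 and 4, as for 2 of 38 ribosomal and 5 of 40 respiratory genes in all. The share of all genes with this order was not counted. These genes have short transcripts, with a median of 1114 nt for the ribosomal and 1428 nt for the respiratory list, against 3521 nt for the endothelial list and 3036 nt over all genes. Genes with p under 0.05 had a median length of 2298 nt when higher and 3464 nt when lower on fish oil. With the genes split by length into 5 groups, in the group of shortest transcripts 4.42% were higher and 4.63% lower at that p, and in that of the longest 1.48% and 7.02%, while the endothelial median was below 0 in each of the 5 length groups, from -0.75 to -0.33. The part of transcript length in these differences was not tested.

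**Figure D4:**
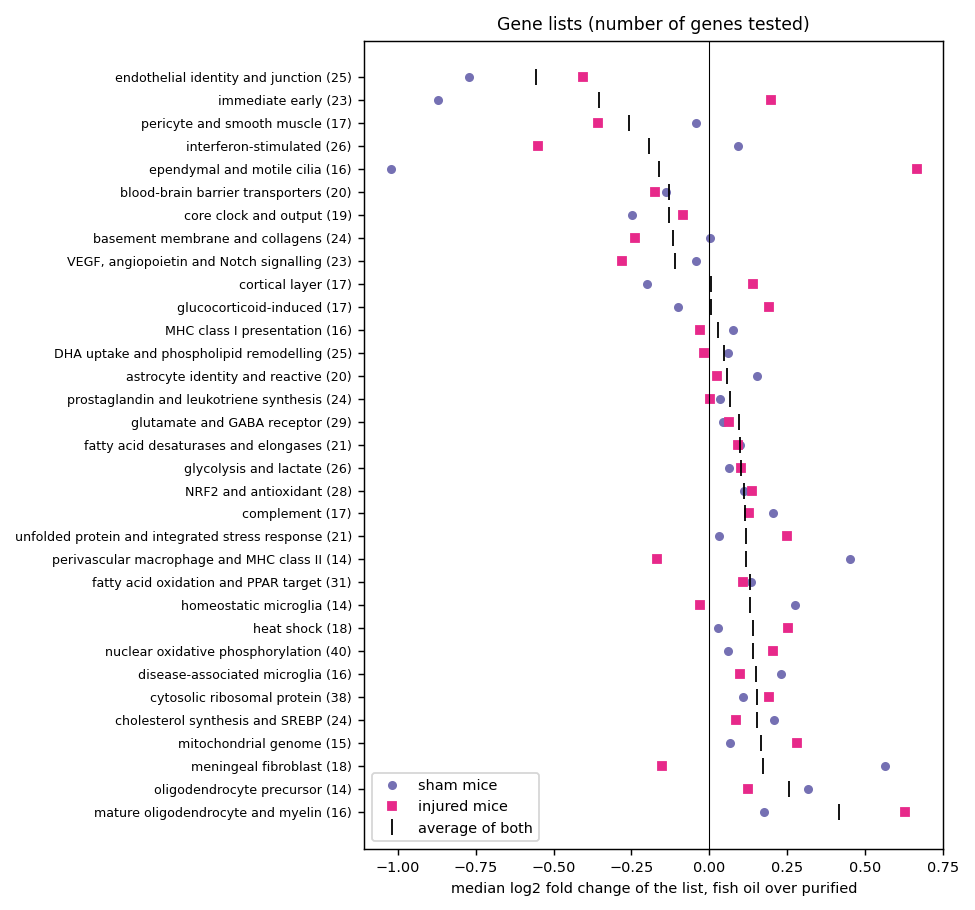
Median log2 fold change (fish oil against purified diet) of each gene list, in sham mice, in injured mice and averaged. The endothelial list has the lowest averaged median of those plotted and lies below 0 in both states, the ribosomal and respiratory lists lie slightly above 0 on both, and the immediate early list has opposite signs. Choroid plexus, striatal and olfactory bulb lists are left out of the plot.

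Lipid genes bear most directly on a fish oil diet. Desaturases make unsaturated fatty acids, and some of them make polyunsaturated ones. Of 21 desaturase and elongase genes tested, 13 were above 0 in both states (28.3% of all genes) and 2 below. At an unadjusted p under 0.05, 5 were higher (2.75% of all genes). Scd2, the main stearoyl desaturase of brain, stood at 2105, 1709 and 1809 CPM in fish oil sham against 1432, 1182 and 1641 CPM in purified sham libraries, and at 1831, 1702 and 1717 CPM in fish oil injured against 1470, 1691 and 1537 CPM in purified injured libraries. The diets did not overlap, though by little in injured mice (0.28 ± 0.09). Scd1 was at 356, 266 and 319 CPM in fish oil sham against 225, 139 and 257 CPM in purified sham libraries, and at 318, 244 and 330 CPM in fish oil injured against 206, 289 and 225 CPM in purified injured libraries, with overlap in injured mice (0.46 ± 0.16). Of the desaturases that make polyunsaturated fatty acids, Fads2 was at 0.28 ± 0.13 (adjusted p = 0.571) and Fads1 at 0.05 ± 0.07 (adjusted p = 0.836).

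Cholesterol synthesis genes leaned the same way, with 17 of 24 above 0 in both states (28.3% of all genes), 1 below, 3 higher at an unadjusted p under 0.05 (2.75% of all genes) and a median of 0.15. Their median was 0.0887 without the 3 libraries with the highest Ttr, which leaves 1 fish oil injured library. The sterol enzymes Ebp and Nsdhl were at 0.27 ± 0.10 and 0.25 ± 0.11. Of 31 genes of fatty acid oxidation and PPAR targets, 19 were above 0 in both states (28.3% of all genes) and 2 below. At an unadjusted p under 0.05, 4 were higher (2.75% of all genes). Acaa2 and Cpt2, both of mitochondrial fatty acid oxidation, were at 0.40 ± 0.12 and 0.45 ± 0.15, and the thioesterase gene Acot1 at 0.41 ± 0.14. All 3 and Ebp were highest in fish oil injured replicates 3 and 4. The list's median of 0.13 was 0.0058 without the 3 libraries with the highest Ttr, with 1 fish oil injured library left. The usual PPAR targets Cpt1a (0.12 ± 0.11), Pdk4 (0.13 ± 0.12) and Angptl4 (-0.03 ± 0.30) lay within about 1 SE of 0, and the receptor genes Ppara and Ppard were at 0.03 ± 0.21 and -0.02 ± 0.13. Pparg, the receptor known for fat cell formation, was at -0.50 ± 0.39. None of 25 genes of DHA uptake and phospholipid remodelling had an unadjusted p under 0.05, by edgeR, and their median was 0.05. The DHA-binding protein gene Fabp5 was at 0.18 ± 0.11.

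Antioxidant genes stood slightly higher on fish oil. Of 28 NRF2 and antioxidant genes, 20 were above 0 in both states (28.3% of all genes) and 0 below. At an unadjusted p under 0.05, 4 were higher (2.75% of all genes). The list's median of 0.11 was 0.0712 without the 3 libraries with the highest Ttr, with 1 fish oil injured library left. Catalase, Cat, was at 0.22 ± 0.08 and Gpx4, which reduces lipid peroxides, at 0.28 ± 0.10, and Cat was highest in fish oil injured replicates 3 and 4. All 16 myelin genes were above 0 in both states, among them Mbp at 0.47 ± 0.31 and Mog at 0.41 ± 0.33, but none had an unadjusted p under 0.05 by edgeR. Their median was 0.41, and 0.21 to 0.57 with each library left out in turn. Their summed level overlapped between diets in both states, at 3040 to 5650 CPM in fish oil sham against 2060 to 6050 CPM in purified sham libraries, and at 2110 to 5980 CPM in fish oil injured against 2180 to 3210 CPM in purified injured libraries. Of 23 immediate early genes, which respond to neuronal activity, 15 had opposite signs, as did 8729 of all 19252 genes. In both states 7 were below 0 (26.4% of all genes) and 1 was above (28.3%). The medians of this list were -0.87 in sham and 0.20 in injured mice.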

How the data were processed

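RNA from cortex of 12 mouse libraries in 4 groups of 3 was analysed. The deposited table gives unnormalised counts for each gene, which the authors made with STAR 2.5.2a and featureCounts 1.4.3-p1 on mm10, per the submitters' processing notes. How strand and multi-mapping reads were handled, and which annotation was used, is not given in the sources, so paralogs, overlapping and antisense genes may share reads. There were 20514 values of 2 against 11222 values of 1, so both mates of a pair may have been counted. The table holds 53379 genes, of which 53274 matched GENCODE M21 symbols without version and 50604 with version (GRCm38 positions). Libraries of a group differed by more than sampling noise (chi-square of at least 32.5 per degree of freedom), so none was taken for a repeat deposit of another, which does not show that they came from separate animals.

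Genes were kept with filterByExpr (minimum count 10), scaled with TMM factors and fitted in edgeR 4.0.16 (glmQLFit and glmQLFTest, robust) under R 4.3.3 with a mean per group (4 in all, 8 residual degrees of freedom), and the biological coefficient of variation was 0.289. The contrasts were fish oil minus purified within each state, their mean and their difference, with Benjamini-Hochberg adjustment over 19252 genes and a threshold of 0.05. Values after ± are SE of log2 fold changes. CPM uses TMM-scaled totals. The procedure was tested on simulated data.

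Members and the 36 gene lists were chosen with earlier results of these data known. Named genes had the same sign in both states and were the 15 higher and 15 lower of smallest p at 1 CPM or more, up to 3 of smallest p per list with p under 0.05, and 20 lipid, transport and clock genes whatever their values, of which Ffar4 was not tested. Predicted genes were left out. Further list members named were chosen after their values were seen. Some genes that met the rule are not reported here. Alternatives were RLE and upper-quartile factors, DESeq2 1.42.0, limma-voom (limma 3.58.1), correlated libraries, other filters, an additive model, a threshold of 0.10, a surrogate variable (sva 3.50.0), a replicate block, other-tissue covariates and left-out libraries. Halved counts and leaving out the 3 libraries highest in Ttr were added after the data were seen. The latter leaves 1 fish oil injured library, replicate 2, and purified sham replicates 2 and 4.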

Additional observations from a re-analysis of the deposited data

How the results depend on the processing

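Values here are counts of genes or averaged log2 fold changes. DESeq2 called 8 genes higher and 91 lower, and limma-voom with libraries sharing the first number of their name correlated called 2 lower (Adgrf5 and Slco1a4), where edgeR called 0. Replicates 3 and 4 of each group share that first number, and no such number occurs in more than 1 group. What it stands for is not given in the labels, so replicates 3 and 4 of a group may not be independent. Leaving out 1 library gave 0 to 6 lower. Genes higher in both states at an unadjusted p under 0.05 numbered 9, with 5 under a filter of 1 CPM in 3 libraries, 32 with correlated libraries and 3 with a surrogate variable. Without the 2 libraries of other regions (fish oil sham replicate 2 and purified injured replicate 3) there was 1, and with 1 library left out 0 to 36. Purified sham replicate 4, with the striatal gene Drd2 at 27.4 CPM, was kept in that alternative without 2 libraries. Without the 3 libraries highest in Ttr, 1 fish oil injured library remained. Of the counts of genes differing in both states, only that of lower genes is given for that setting. No conclusion is drawn from it. Genes lower in both numbered 59, with 159, 24 and 10 under correlated libraries, without the libraries of other regions and without the Ttr libraries, 3 with other-tissue scores as covariates and 32 to 120 with 1 library left out. Genes with opposite signs numbered 20, with 51 under correlated libraries, 12 without the libraries of other regions, 51 with the covariates and 12 to 65 with 1 library left out. Endothelial genes below 0 in both states numbered 20 to 23 under every alternative run, and those lower at an unadjusted p under 0.05 numbered 9 with the covariates and 16 to 19 with 1 library left out. The endothelial median was -0.56 with RLE factors, -0.55 with upper-quartile factors and -0.51 with the covariates. The cause of these shifts was not tested.

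With the replicate number as a block, 4 genes were higher and 47 lower in both states and the averaged difference again called 0. Same-numbered libraries of different groups correlated at -0.37 to 0.28 (median -0.02), and those of other numbers at -0.34 to 0.38 (median 0.03). No pairing by number was seen, but with 3 libraries a group this cannot show that there was none.

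Of 115 genes under the alternatives, 14 changed sign. Without the libraries of other regions this held for Shisa3 (0.23), Pparg (0.10), Fabp7 (0.30), Plin2 (0.0818), Elovl2 (0.0675), Ppard (0.0276), Angptl4 (0.13) and Clock (0.0425), and with the covariates for Shisa3 (0.17), Fabp7 (0.0538), Plin2 (0.034) and Clock (0.0322). Without the Ttr libraries it held for Cpt1a (-0.069), Fads1 (-0.014), Ppara (-0.15), Arntl (0.0737) and Clock (0.118), with a surrogate variable for Ppard (0.0785) and Ppara (-0.0594), and for Angptl4 with limma-voom (0.0474), correlated libraries (0.00305) and the replicate block (0.0143), and for Clock with all genes of any count (0.00241). With 1 library left out the ranges were -2.47 to 0.11 for Shisa3, -0.74 to 0.38 for Fabp7, -0.31 to 0.0933 for Plin2, -0.00871 to 0.14 for Acsl6, -0.0251 to 0.23 for Elovl5, -0.14 to 0.0592 for Elovl2, -0.12 to 0.0362 for Ppard, -0.16 to 0.14 for Ppara, -0.21 to 0.14 for Angptl4, -0.11 to 0.0323 for Arntl and -0.0491 to 0.0329 for Clock.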
